A study of Mus musculus with 2 samples.

Results

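The 9 genes described here belong to the CXC chemokine family: the neutrophil-attracting ligands Cxcl1, Cxcl2, Cxcl3, Cxcl5 and Ppbp, their receptor Cxcr2, and the ligands Pf4, Cxcl14 and Cxcl16. They were chosen by name as a family, with earlier results of these data known, and all 9 were found among the 31053 features of the count matrices. Their raw UMI counts (unique molecular identifiers, each standing for 1 captured transcript) were followed across cell classes and set against the share of neutrophil-like cells.

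The cells were CD45-positive cells sorted live from tumours of the mouse mesothelioma line AB1-HA after digestion with collagenase A and DNase. They were profiled with the 10x Genomics 3′ chemistry. The control library was made after a control antibody and the anti-VEGF library after an antibody against the growth factor of blood vessels encoded by Vegfa. Both groups therefore share the tumour line, the sort and an antibody injection. Strain, age, dose, duration and the number of mice behind each library are not given in the sources used here. With 1 library per group there was no replicate and no test between groups, so every difference describes these 2 libraries. Intervals are exact, at the 95% level, and allow for counting error alone.

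CXC chemokines are small secreted proteins that bind G protein-coupled receptors on leukocytes and direct their migration. Those with a glutamate-leucine-arginine motif before the first cysteines, which include the products of Cxcl1, Cxcl2, Cxcl3, Cxcl5 and the processed product of Ppbp, act on Cxcr2 and draw neutrophils out of the blood into inflamed or tumour-bearing tissue. Pf4 and Ppbp are textbook genes of platelets and megakaryocytes, Cxcl14 is a constitutive chemokine of epithelium and some myeloid cells, and Cxcl16 is a membrane-bound chemokine and scavenger receptor that is shed by proteases and bound by Cxcr6 on T cells.

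Of the 9 genes, 6 lie together on chromosome 5 of GRCm38 (mm10), on the forward strand, within 147 kb. In order along the chromosome they are Cxcl5 (chr5:90759360-90761624), Ppbp (chr5:90768518-90770063), Pf4 (chr5:90772435-90773383), Cxcl3 (chr5:90786103-90789600), Cxcl1 (chr5:90891241-90893115) and Cxcl2 (chr5:90903871-90905938). Cxcr2 lies at chr1:74153989-74161246 on the forward strand, Cxcl16 at chr11:70453983-70459984 and Cxcl14 at chr13:56288643-56296551, both on the reverse strand. All are protein-coding genes.

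The promoters of Cxcl1, Cxcl2 and Cxcl3 are printed because these 3 paralogous neutrophil attractants share 1 run of letters. Of the 9 genes, 7 had a promoter entry in the RefSeq table (GRCm38.p6). In the 250 bases before the RefSeq start, the longest run of letters common to Cxcl1, Cxcl2 and Cxcl3 was GGGAATTTCCC, with 11 bases, and the next longest had 8. It has the form of a κB element, the sequence bound by NF-kB proteins. Searched on both strands, these letters occurred in 14 of 32851 promoters (0.0426%). They lay at -71 to -61 from the RefSeq start in Cxcl1, -97 to -87 in Cxcl2 and -73 to -63 in Cxcl3, on the strand of the gene. They did not occur in this window of the other 4 members with an entry. The RefSeq window of Cxcl2 ended at chr5:90903898, inside the gene as given above (from 90903871). The run of Cxcl2 thus lies nearer to that gene start than to the RefSeq start. The core letters ACGTG of hypoxia response elements, which 16.6% of promoters held, occurred in Cxcl1 and Cxcl3. The stretches below run 5′ to 3′ on the forward strand and end before the annotated transcript, with the shared run in capitals. A match is a description of letters and not a bound site.
Cxcl1 upstream, chr5:90891125-90891240: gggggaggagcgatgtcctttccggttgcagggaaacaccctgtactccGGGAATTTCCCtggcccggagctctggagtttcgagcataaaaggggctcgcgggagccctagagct
Cxcl2 upstream, chr5:90903779-90903870: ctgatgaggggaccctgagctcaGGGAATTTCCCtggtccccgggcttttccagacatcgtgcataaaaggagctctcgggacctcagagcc
Cxcl3 upstream, chr5:90785981-90786100: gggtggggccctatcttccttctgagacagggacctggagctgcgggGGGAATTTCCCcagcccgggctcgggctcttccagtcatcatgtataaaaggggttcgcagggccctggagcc

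The control library held 11687 barcodes and 233687412 UMIs, and the anti-VEGF library 8825 barcodes and 213948867 UMIs, with medians of 17293 and 21781 UMIs per barcode. The filter on cells passed 10805 and 8159 cells, and 35 barcode sequences occurred in both libraries. Cells were placed in classes by marker genes that included no member of the family. Macrophage-like cells (C1qa, Adgre1, Apoe and other markers) were the most numerous, at 5046 control and 3589 anti-VEGF cells. Monocyte-like cells (Ly6c2, Ccr2) numbered 177 and 356, Acp5-high cells 1406 and 818, collagen-expressing cells 401 and 563, T or NK cell-like cells 96 and 57, and dendritic cell-like cells 58 and 32. Most collagen-expressing cells went against the sort for CD45, since only 10.5% of the control and 11.2% of the anti-VEGF cells of the class had a UMI of Ptprc, the gene of CD45. Cells that met more than 1 gate (272 and 234) were kept apart as mixed, and 1607 and 1514 cells met none, besides 1668 and 738 with under 3000 UMIs.

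Neutrophil-like cells, gated on genes such as S100a8, S100a9, Csf3r and Retnlg, made up 0.472% of control cells (51 cells, interval 0.352 to 0.620) and 3.04% of anti-VEGF cells (248 cells, interval 2.68 to 3.44). The share was 6.44 times as high in the anti-VEGF library, and the intervals did not overlap. The class held 16 of 18 neutrophil markers with a UMI in the control library (Camp and Ngp at 0) and 17 of 18 in the anti-VEGF library (Camp at 0). Ly6g, a defining surface marker of neutrophils, was found in 5.88% and 1.61% of the cells. Their median UMI counts were low in both libraries, at 2390 and 2196, so a limit on UMIs bears on this share. Among cells with at least 3000 UMIs the class held 4 of 7843 (0.0510%) and 35 of 6961 (0.503%), with the same direction. A stricter cell filter gave 0.595% and 3.44%. Counting the mixed cells that met the neutrophil gate brought the cells to 75 (0.694%) and 351 (4.30%).

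Over all cells, 8 of the 9 genes had a higher level in the anti-VEGF library and Cxcl16 a lower one. Levels are UMIs of the gene scaled to a common total of the class (CPM, counts per 1e6), and a gene is called past 1.5-fold on the log2 ratio of CPM plus 1. By this measure 6 members were higher and 0 lower, beside 3.61% of all features higher and 1.07% lower. Such counts, here and within classes, describe a list chosen with earlier results of these data known. The members' median log2 ratio was 0.76, beside -0.05 over all features with at least 30 UMIs. Cxcl5 had the largest ratio, with 248 UMIs in control and 1111 in anti-VEGF cells (1.11 and 5.38 CPM, ratio 4.86, interval 4.23 to 5.60). Ppbp had 74 and 259 UMIs (ratio 3.80, interval 2.92 to 4.99), and Cxcl3 8.05 and 26.7 CPM (ratio 3.32, interval 3.15 to 3.50). Cxcr2 went from 168 to 454 UMIs (ratio 2.93, interval 2.45 to 3.52). These are levels of whole libraries whose classes had different sizes, so each gene was next read within classes.

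**Figure D1:**
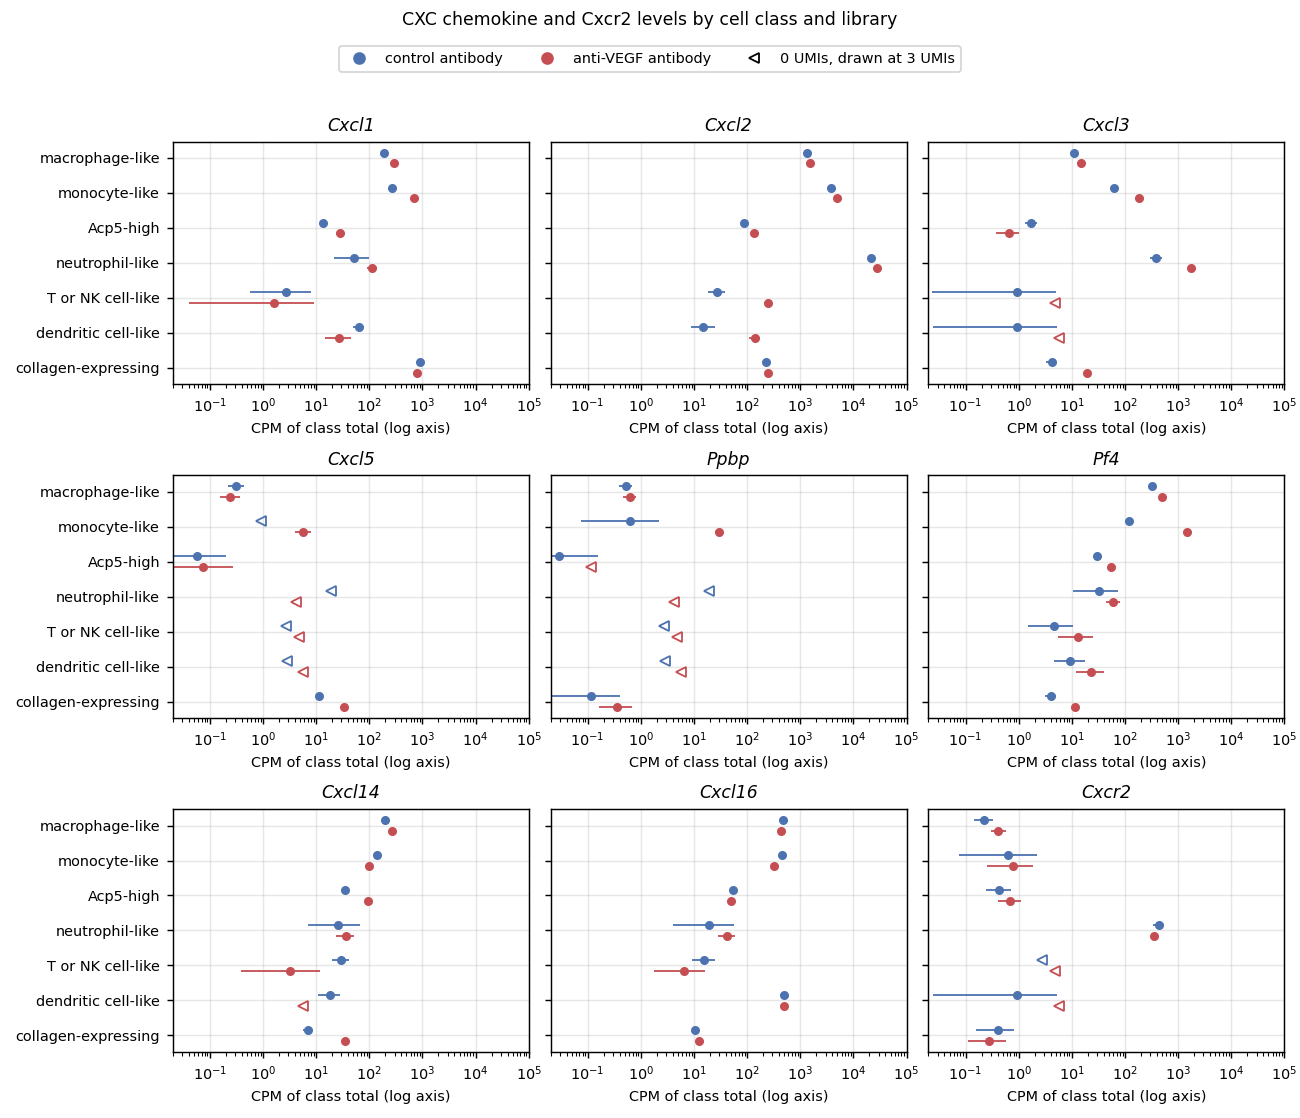
Level of each of the 9 genes in 7 cell classes, as CPM of the class total on a log axis, for the control (blue) and anti-VEGF (red) libraries. Points are sums over the cells of 1 library and bars are 95% counting intervals; open triangles mark classes with 0 UMIs, drawn at the level of 3 UMIs. Neutrophil-like cells have the highest Cxcl2, Cxcl3 and Cxcr2, collagen-expressing cells the highest Cxcl1 and Cxcl5.

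Cxcl2, an early-response chemokine of myeloid cells, was graded over the classes in both libraries. Neutrophil-like cells held 21556 CPM in the control library and 28012 in the anti-VEGF library. Monocyte-like cells held 3754 and 4831 CPM, and macrophage-like cells 1352 and 1548 CPM. Each step in this order was wider than the counting intervals in both libraries. Further down came collagen-expressing cells (228 and 251 CPM) and Acp5-high cells (85.6 and 134 CPM), the latter gated on osteoclast genes such as Acp5 and Ctsk. T or NK cell-like cells held 30 and 154 UMIs, of which 146 were in 1 anti-VEGF cell, and dendritic cell-like cells 16 and 73 UMIs.

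The ratio of anti-VEGF to control was 1.14 in macrophage-like cells (interval 1.14 to 1.15), 1.29 in monocyte-like cells (1.26 to 1.31), 1.30 in neutrophil-like cells (1.25 to 1.35) and 1.57 in Acp5-high cells (1.495 to 1.65). Of these 4 only the ratio in Acp5-high cells was past 1.5-fold. The ratio was larger on the low sums of dendritic cell-like cells (9.28, 5.35 to 17.1) and T or NK cell-like cells (9.04, 6.08 to 13.8), and without the richest cell of each library the T or NK cell-like sums were 26 and 8 UMIs. Mixed cells had a ratio of 1.86 (1.82 to 1.90). In neutrophil-like cells the log2 ratio of 0.38 became 0.73 with TMM scaling, which shifted all log2 ratios of the class by 0.35. It was 0.91 without the 5 richest cells of each library. In collagen-expressing cells the ratio was 1.10 (1.059 to 1.15), and the log2 ratio of 0.14 took the other sign, -0.16, when each cell was weighted the same. The parts of that class went opposite ways. Cxcl2 was at 256 and 696 CPM in its cells with a Ptprc UMI (42 and 63) and at 223 and 175 CPM in those without. A pair of anti-VEGF cells of the class held 892 and 713 of its 6348 UMIs.

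The same order held cell by cell. Per 10000 UMIs of the cell, neutrophil-like cells had a median of 181 Cxcl2 UMIs with the control antibody (quartiles 57.0 and 356) and 233 with the anti-VEGF antibody (105 and 433). Medians were 19.5 and 30.2 in monocyte-like cells and 2.52 and 3.83 in macrophage-like cells. The quartile ranges of the libraries overlapped within each of these classes. After thinning to 2000 UMIs, for which shallower cells were dropped, 97.3% of the control and 97.4% of the anti-VEGF neutrophil-like cells had a Cxcl2 UMI (96.1% and 98.4% unthinned). The drop took 14 of 51 and 93 of 248 neutrophil-like cells, 665 and 124 macrophage-like cells, 4 and 6 monocyte-like cells, 7 and 12 collagen-expressing cells and 3 and 1 T or NK cell-like cells. Monocyte-like cells stood at 68.8% and 79.7% (85.9% and 89.0% unthinned), and macrophage-like cells at 48.0% and 51.3% (67.7% and 77.3% unthinned). T or NK cell-like cells, which are not known as a source of Cxcl2, gave 3.23% and 7.14% thinned and 24.0% and 15.8% unthinned at median depths of 8909 and 8740 UMIs. The shares of neutrophil-like, monocyte-like and macrophage-like cells were thus far above that of T or NK cell-like cells. Acp5-high cells had a Cxcl2 UMI in 408 of 1406 and 328 of 818 cells unthinned, at median depths of 26028 and 30876 UMIs.

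**Figure D2:**
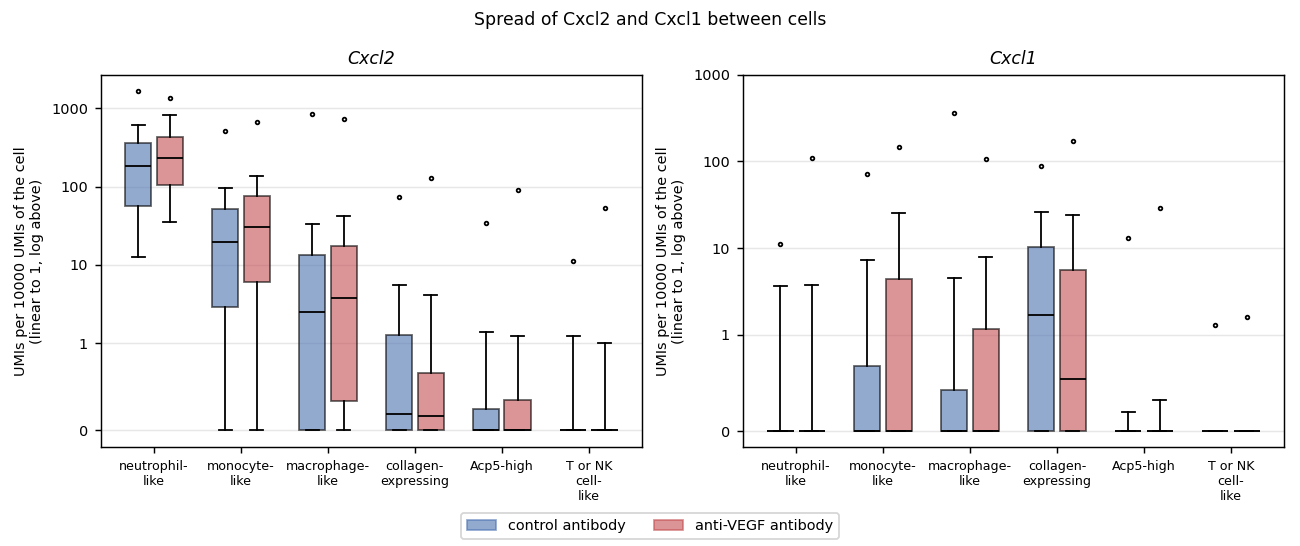
Cxcl2 (left) and Cxcl1 (right) per cell, as UMIs per 10000 UMIs of the cell on an axis that is linear up to 1 and logarithmic above, for the control (blue) and anti-VEGF (red) cells of 6 classes. Boxes span the quartiles with the median as a line, whiskers the 10th to 90th percentiles, and the point is the highest cell. Neutrophil-like cells have medians of 181 and 233 for Cxcl2, while most cells of each class but the collagen-expressing cells have no Cxcl1 UMI.

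Cxcl1, the other main mouse ligand of Cxcr2, differed from Cxcl2 in its order over the classes, with the highest level in collagen-expressing cells. Collagen-expressing cells held 904 CPM in control and 786 in anti-VEGF cells, so Cxcl1 was slightly lower with the anti-VEGF antibody (ratio 0.869, interval 0.851 to 0.888). Macrophage-like cells held 191 and 291 CPM (ratio 1.53, 1.5002 to 1.56), monocyte-like cells 271 and 701 CPM (ratio 2.59, 2.41 to 2.79) and Acp5-high cells 13.4 and 27.8 CPM (ratio 2.08, 1.85 to 2.34). Cxcl1 was thus higher in the macrophage-like, monocyte-like and Acp5-high cells of the anti-VEGF library, and lower in its collagen-expressing and dendritic cell-like cells (ratio 0.425 in the latter, 0.221 to 0.764), a contrast that could not be tested with 1 library per group. The ratio in macrophage-like cells was just past 1.5-fold, and with gates 1 marker looser its log2 ratio of 0.61 was 0.58, just short of it. The monocyte-like log2 ratio of 1.37 was 0.62 with gates 1 marker stricter, and the Acp5-high log2 ratio of 1.00 was 0.29 with the stricter cell filter. Neutrophil-like cells had 8 and 83 Cxcl1 UMIs (51.2 and 115 CPM, ratio 2.24, 1.08 to 5.36), in 11.8% and 11.3% of cells.

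Cxcl1 was unevenly spread between cells. The median collagen-expressing cell had 1.70 Cxcl1 UMIs per 10000 in control and 0.546 in anti-VEGF cells, while the 90th percentiles were close, at 26.3 and 24.3. In macrophage-like cells the median was 0 in both libraries and the 90th percentiles were 4.48 and 7.91. Thinned to 2000 UMIs, 44.4% of control and 33.6% of anti-VEGF collagen-expressing cells had a Cxcl1 UMI (68.3% and 63.6% unthinned). In macrophage-like cells the thinned shares were 13.2% and 17.8% (30.02% and 42.2% unthinned), and in monocyte-like cells 16.2% and 29.1% (29.4% and 43.3% unthinned). No T or NK cell-like cell kept a Cxcl1 UMI after thinning (3.13% and 1.75% unthinned). The lower Cxcl1 of anti-VEGF collagen-expressing cells was thus seen in the share and the median of cells, not at the top of the range. Among the few collagen-expressing cells with a Ptprc UMI (42 and 63) Cxcl1 was at 979 and 571 CPM, and among those without it at 893 and 823 CPM.

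Cxcl3, a close paralog of Cxcl1 and Cxcl2, had its highest level in neutrophil-like cells. Its ratio between the libraries was largest in neutrophil-like and collagen-expressing cells among the named classes, with overlapping intervals. Outside the named classes the ratio was 6.50 in ungated cells (interval 5.10 to 8.36) and 5.06 in mixed cells (4.19 to 6.14). In ungated low-UMI cells it was 6.27 (3.67 to 11.1). These intervals overlapped those of neutrophil-like and collagen-expressing cells. Neutrophil-like cells held 60 UMIs in control and 1288 in anti-VEGF cells (384 and 1780 CPM, ratio 4.63, interval 3.57 to 6.10). Monocyte-like cells held 200 and 1179 UMIs (61.7 and 187 CPM, ratio 3.02, 2.60 to 3.53), and collagen-expressing cells 74 and 485 UMIs (ratio 4.55, 3.56 to 5.89). Macrophage-like cells differed less, with 1172 and 1419 UMIs (10.9 and 15.1 CPM, ratio 1.39, 1.28 to 1.501), and 240 of the 1419 were in 1 cell. The monocyte-like log2 ratio of 1.58 was 0.66 with stricter gates and 2.71 without the 5 richest cells. The neutrophil-like log2 ratio of 2.21 was 4.38 without the 5 richest cells of each library, out of 51 control cells. Acp5-high cells had 61 and 17 UMIs, with 31 and 20 of the 61 in a pair of control cells, and without the 5 richest cells the log2 ratio turned from -0.73 to 0.23.

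The share of cells with a Cxcl3 UMI moved the same way. Thinned to 2000 UMIs it was 13.5% in control and 41.3% in anti-VEGF neutrophil-like cells (21.6% and 37.1% unthinned), and 5.78% and 15.1% in monocyte-like cells (13.6% and 26.4% unthinned). In macrophage-like cells it was 1.44% and 1.59% thinned, and in T or NK cell-like cells 0 in both. Cells with Cxcl3 nearly always had Cxcl2 as well: 10 of 11 and 92 of 92 neutrophil-like cells, 24 of 24 and 94 of 94 monocyte-like cells, and 216 of 222 and 218 of 224 macrophage-like cells. Cxcl2 was found in 49 of 51 and 244 of 248 of all neutrophil-like cells, so the overlap there was near that share. It was found in 152 of 177 and 317 of 356 monocyte-like and 3415 of 5046 and 2775 of 3589 macrophage-like cells. In collagen-expressing cells the overlap was lower, at 9 of 16 and 38 of 51 cells, beside 226 of 401 and 317 of 563 of all cells. In Acp5-high cells it was 5 of 9 and 11 of 13, beside 408 of 1406 and 328 of 818. Cxcl1, Cxcl2 and Cxcl3 are paralogs, and the sources used here do not say how reads aligning to more than 1 of them were treated.

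Cxcl5, a ligand known from fibroblasts, epithelium and mesothelium, came mainly from collagen-expressing cells. They gave 80.6% of its UMIs in the control library and 77.3% in the anti-VEGF library. Their level was 11.4 and 34.0 CPM (200 and 859 UMIs, ratio 2.98, interval 2.55 to 3.50). Few cells carried it, 30 of 401 and 68 of 563, and the richest 4 and 6 cells held 54.0% and 61.2% of these UMIs. Macrophage-like cells had 34 and 23 Cxcl5 UMIs, monocyte-like cells 0 and 36 (at least 6.15-fold higher against a floor of 3 UMIs), and neutrophil-like cells 0 and 0. Mixed cells had 6 and 187, of which 148 were in 1 cell. Collagen-expressing cells with a UMI of Car9, a hypoxia-induced carbonic anhydrase, were 29.2% of the class in control and 62.0% in anti-VEGF cells. Cxcl5 stood at 18.5 and 10.8 CPM in these cells and at 7.95 and 79.7 CPM in those without Car9. By CPM the higher level thus lay in the cells with Car9 in the control library and in those without it in the anti-VEGF library. In the control library 6.84% of 117 cells with Car9 and 7.75% of 284 without it had a Cxcl5 UMI. In the anti-VEGF library these shares were 8.31% of 349 and 18.2% of 214 cells. The higher control CPM with Car9 thus came from 106 UMIs without a higher share of cells. The split by Car9 was chosen after values had been seen.

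**Figure D3:**
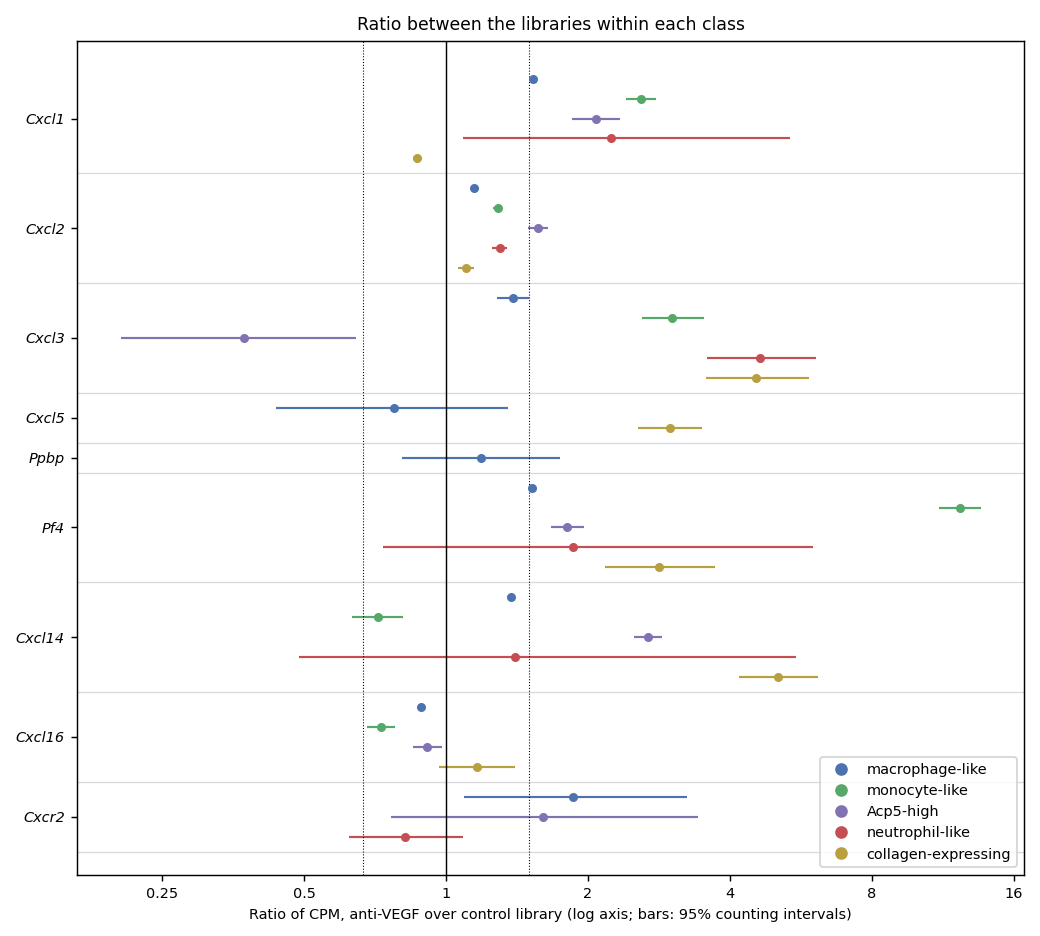
Ratio of CPM between the anti-VEGF and the control library for each gene within 5 cell classes, on a log axis, with 95% counting intervals. The solid line marks equal levels and the dotted lines 1.5-fold; gene and class pairs with under 30 UMIs in all or with 3 or fewer in a library are left out. Cxcl3 and Pf4 reach 4.63 in neutrophil-like and 12.3 in monocyte-like cells, while Cxcl2 lies between 1.10 and 1.57 in all 5 classes.

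Within classes, the members called past 1.5-fold were 2 higher and 0 lower of 9 in macrophage-like cells (Cxcl1 and Pf4), beside 2.61% of features higher and 1.27% lower. In monocyte-like cells they were 5 higher and 0 lower of 8 with enough UMIs (background 8.2% and 4.75%), and in Acp5-high cells 4 higher and 1 lower of 7 (1.95% and 1.09%). Neutrophil-like cells had 4 higher and 0 lower of 7, in a class where 17.1% of features were higher and 22.5% lower, so calls there were common at this depth. Collagen-expressing cells had 4 higher and 0 lower of 7 (3.43% and 2.22%). T or NK cell-like cells had 1 higher (Cxcl2) and 1 lower of 2 (9.82% and 9.43%), the lower one being Cxcl14 with 32 and 2 UMIs. Dendritic cell-like cells had 1 higher (Cxcl2) and 1 lower of 3 (8.19% and 14.2%), the lower one being Cxcl1 with 67 and 14 UMIs. The members' median log2 ratio was 0.21 in macrophage-like, 1.47 in monocyte-like, 0.87 in neutrophil-like and 1.30 in collagen-expressing cells, beside -0.08, 0.01, -0.11 and -0.07 over all features. In cells outside the named classes the counts were 5 higher and 0 lower of 8 in mixed cells (4.1% and 4.52%), 5 and 0 of 6 in ungated cells (9.71% and 3.48%), and 3 and 0 of 6 in ungated low-UMI cells (7.12% and 16.0%).

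Ungated cells carried the ligands too. Cxcl1 stood at 49.7 and 165 CPM there (ratio 3.32, interval 3.17 to 3.49), Cxcl2 at 252 and 542 CPM (2.15, 2.10 to 2.20) and Cxcl3 at 1.81 and 11.8 CPM (6.50, 5.10 to 8.36). They gave 4.85% of the control and 10.4% of the anti-VEGF UMIs of Cxcl1. These cells had too few macrophage or other markers for a class and stay unnamed.

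The part that each class gave to the library's UMIs differed between the libraries. Macrophage-like cells gave 65.04% of the Cxcl3 UMIs in the control library and 25.7% in the anti-VEGF library, neutrophil-like cells 3.33% and 23.4%, and monocyte-like cells 11.1% and 21.4%. For Cxcl2 macrophage-like cells gave 75.3% and 58.0%, monocyte-like cells 6.28% and 12.2%, and neutrophil-like cells 1.74% and 8.07%. Cxcl1 came from macrophage-like cells (46.6% and 42.8%) and collagen-expressing cells (36.0% and 31.0%) in both libraries. The neutrophil-attracting ligands were thus made mostly by other classes than the neutrophil-like cells. Their sum over Cxcl1, Cxcl2, Cxcl3, Cxcl5 and Ppbp outside neutrophil-like cells was 1056 CPM in control and 1460 in anti-VEGF cells (ratio 1.38, interval 1.37 to 1.39), or 22.0 and 38.0 UMIs per cell. The neutrophil-like cells held 1.43% and 6.72% of that sum.

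Class sizes and levels within classes both entered these totals. The mean cell of the control library had 17.9 Cxcl2 UMIs. Control levels with the class sizes of the anti-VEGF library gave 21.3, anti-VEGF levels with the control sizes 26.4, and the anti-VEGF library itself had 30.8. For Cxcl3 the 4 values in the same order were 0.167, 0.228, 0.420 and 0.676, and for Cxcl1 they were 4.08, 5.45, 6.40 and 7.85. In UMIs per cell, the exchange of levels moved the mean of these 3 ligands further than the exchange of class sizes. These levels were not scaled for depth, which was higher in the anti-VEGF library. Macrophage-like cells had medians of 19372 UMIs in control and 22549 in anti-VEGF cells. The exchange of levels thus includes that depth, and which exchange moved the mean further at equal depth was not tested.

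**Figure D4:**
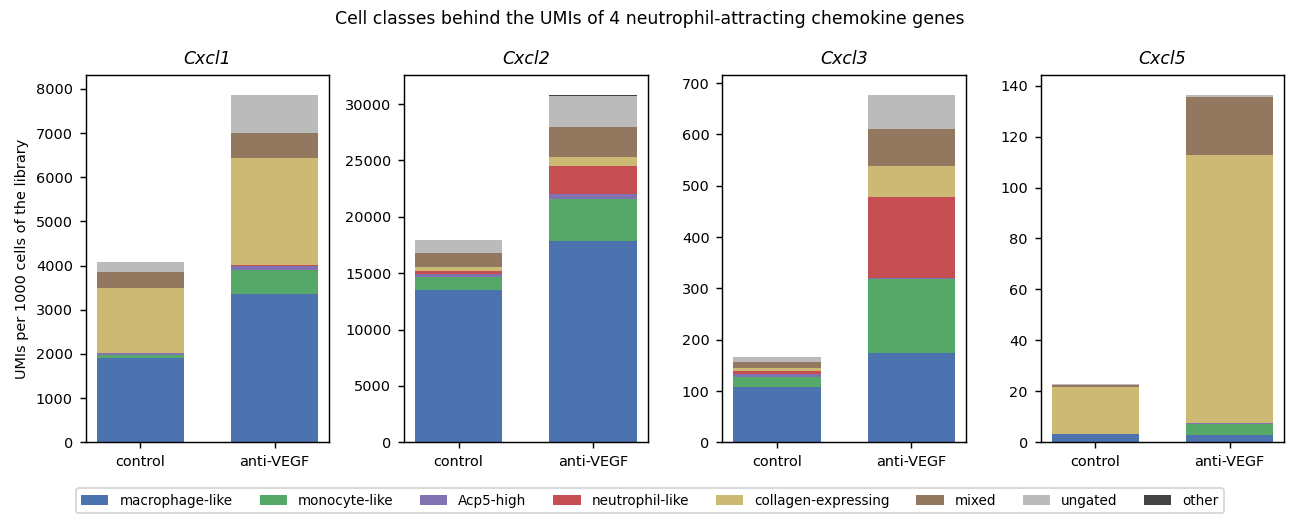
UMIs of Cxcl1, Cxcl2, Cxcl3 and Cxcl5 per 1000 cells of the control and the anti-VEGF library, stacked by the cell class that held them; ungated includes low-UMI cells, and other stands for T or NK, dendritic, mast and plasmacytoid cells. Each panel has its own scale. Macrophage-like cells give most Cxcl2, collagen-expressing cells most Cxcl5, and the neutrophil-like part of Cxcl3 goes from 3.33% to 23.4%.

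Cxcr2, the receptor through which neutrophils follow these ligands, marked the neutrophil-like cells although it was not used to gate them. They held 67 UMIs in control and 254 in anti-VEGF cells (429 and 351 CPM). No other named class was above 1 CPM, and T or NK cell-like cells had 0 UMIs in 96 and in 57 cells, which allows shares of cells with a UMI, not of cells expressing the gene, of up to 3.13% and 5.26%. The level within neutrophil-like cells did not differ beyond counting error (ratio 0.818, interval 0.623 to 1.09), and the log2 ratio of -0.29 was 0.06 with TMM scaling. Cells with a Cxcr2 UMI were 33 of 51 (64.7%) and 120 of 248 (48.4%), or 54.1% of 37 and 41.3% of 155 cells after thinning to 2000 UMIs. The higher Cxcr2 of the whole anti-VEGF library thus went with a larger neutrophil-like share, while the level within neutrophil-like cells was not higher.

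Of all Cxcr2 UMIs, neutrophil-like cells held 39.9% in control and 55.9% in anti-VEGF cells, and mixed cells 20.8% and 26.7%. Mixed cells that met the neutrophil gate held 26 of the 35 control and 115 of the 121 anti-VEGF Cxcr2 UMIs of mixed cells. Of these mixed cells, 24 of 24 and 98 of 103 also met the macrophage gate, and their median UMI counts were 28631 and 31476. No doublet caller was run, and whether they are pairs of cells was not tested. Counted with them, the cells in the neutrophil gate held 2.39% and 13.03% of all Cxcl2 UMIs. Macrophage markers also gave UMIs in the neutrophil-like class itself: 10 of 11 had a UMI in the control library (Mertk at 0) and 11 of 11 in the anti-VEGF library, summing to 1397 and 973 CPM. The part of these transcripts in the Cxcl2 level was not tested.

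Pf4, known for platelet granules but also transcribed in macrophages, was a macrophage gene in these tumours. Macrophage-like cells held 86.1% of its UMIs in control and 70.5% in anti-VEGF cells. Their level was 327 and 498 CPM (ratio 1.52, interval 1.499 to 1.54), and 29.8% and 38.1% of them had a Pf4 UMI after thinning (63.6% and 78.9% unthinned). The log2 ratio of 0.60 was 0.57 with gates 1 marker looser, just short of 1.5-fold. T or NK cell-like cells gave 1.08% and 3.57% thinned. The 9 platelet or megakaryocyte markers averaged 0.013 UMIs per 10000 in macrophage-like cells of both libraries.

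Monocyte-like cells had the widest Pf4 difference of any class, 121 CPM in control and 1493 in anti-VEGF cells (393 and 9435 UMIs, ratio 12.3, interval 11.1 to 13.6). The log2 ratio of 3.61 was 2.92 with gates 1 marker stricter and 2.76 with gates 1 marker looser. Cells with at least 10 Pf4 UMIs per 10000 were 7 of 177 (3.95%) and 77 of 356 (21.6%), and the 77 held 90.6% of the anti-VEGF Pf4 UMIs of the class. These Pf4-high cells had 0 UMIs of the platelet markers. In the anti-VEGF library they averaged 23.9 UMIs per 10000 of the resident-macrophage-like list (Selenop, Stab1, Folr2, Lyve1, Cd163, F13a1), beside 6.14 in the other monocyte-like cells. In the control library the values were 14.8 and 4.53. The class summed to 10395 and 8587 CPM of macrophage markers, all 11 detected in both libraries, so its border with macrophage-like cells is a matter of the gate.

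Acp5-high cells held Pf4 at 29.9 and 54.1 CPM (ratio 1.81, interval 1.67 to 1.96) and collagen-expressing cells at 4.05 and 11.4 CPM (2.83, 2.17 to 3.72). In neutrophil-like cells Pf4 rested on 5 and 43 UMIs, and the log2 ratio of 0.87 turned to -0.51 with looser gates. Collagen-expressing cells also gave UMIs of the 4 class II genes, for example H2-Aa at 11.5 and 55.5 CPM and Cd74 at 35.1 and 142 CPM. Macrophage markers in that class summed to 263 and 236 CPM with all 11 detected. What part cells or free RNA of another class had in the higher Pf4 and Cxcl3 of collagen-expressing cells was not tested.

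Ppbp, whose product is cut to a neutrophil-activating peptide in platelets, was found beside Pf4 in macrophage-like and monocyte-like cells. Macrophage-like cells gave 75.7% of its UMIs in the control library, and monocyte-like cells 70.7% in the anti-VEGF library. Monocyte-like cells had 2 UMIs in 1 control cell and 183 UMIs in 12 anti-VEGF cells (ratio 46.9, interval 12.8 to 390), with 109 of the 183 in 1 cell. That cell had 386 Pf4 UMIs and 0 platelet-marker UMIs. All 12 of the anti-VEGF monocyte-like cells with Ppbp had Pf4, as did 37 of 37 and 29 of 31 macrophage-like cells with Ppbp. Pf4 was found in 199 of all 356 anti-VEGF monocyte-like cells and in 3209 of 5046 and 2833 of 3589 macrophage-like cells. Of the collagen-expressing cells with Ppbp, 0 of 2 and 2 of 9 had Pf4. The level in macrophage-like cells was 56 and 58 UMIs (ratio 1.19, interval 0.808 to 1.75), and neutrophil-like cells had 0 in both libraries.

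Cxcl14 was found mainly in macrophage-like and ungated cells, which gave 66.2% and 23.4% of its control UMIs and 58.6% and 28.4% of its anti-VEGF UMIs. Macrophage-like cells held 199 and 273 CPM (ratio 1.37, interval 1.35 to 1.40) and Acp5-high cells 35.2 and 94.3 CPM (2.68, 2.50 to 2.87). In monocyte-like cells it was lower in the anti-VEGF library, at 138 and 98.7 CPM (0.716, 0.633 to 0.810), but that log2 ratio of -0.48 was 0.01 with stricter gates. Collagen-expressing cells had 122 and 888 UMIs (ratio 5.05, 4.18 to 6.16), of which a pair of anti-VEGF cells held 229 and 219. Their log2 ratio of 2.18 was 0.94 when each cell was weighted the same.

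Cxcl16 was the member with a lower level over all cells in the anti-VEGF library, 300.1 against 261 CPM (ratio 0.871, interval 0.861 to 0.881). Macrophage-like cells gave 77.1% and 74.2% of it and held 480 and 426 CPM (0.887, 0.875 to 0.898). Monocyte-like cells held 445 and 323 CPM (0.726, 0.678 to 0.777), and dendritic cell-like cells 493 and 485 CPM (0.984, 0.844 to 1.15), with a UMI in all 58 and all 32 of the dendritic cell-like cells. None of these ratios was past 1.5-fold. Cxcr6, its receptor, had 144 and 182 UMIs in T or NK cell-like cells, in 37 of 96 and 29 of 57 cells (131 and 292 CPM, ratio 2.23, 1.78 to 2.79). Adam17 and Adam10, which shed Cxcl16, had ratios of 0.932 and 0.912 in macrophage-like cells.

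Macrophage-like cells were also split by the rate of state genes, each state being the cells above the 75th percentile of macrophage-like cells of both libraries, so that states overlap. The hypoxia state (Slc2a1, Ndrg1, Bnip3, Adm, Ankrd37, Egln3) held 564 control cells (11.2%) and 1595 anti-VEGF cells (44.4%). In the control library Cxcl1 was 358 CPM in this state and 172 in the other cells, and in the anti-VEGF library 346 and 249 CPM. Cells in the hypoxia state thus had close Cxcl1 levels in both libraries, and the other cells differed more. Cxcl2 was 2258 and 1249 CPM in the control and 1738 and 1402 CPM in the anti-VEGF library, again higher in the state. Pf4 followed with 781 and 276 CPM, and 674 and 361 CPM. Cxcl3 was higher in the state in the control library (35.0 and 8.12 CPM) and lower in the anti-VEGF library (12.6 and 17.0 CPM). The state is a range and not a cell type, and 197 and 251 cells lay within 10% of its limit.

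Other states ordered the ligands differently. Resident-like cells (1490 and 669) had more Pf4, 458 against 268 CPM in the control and 1035 against 368 CPM in the anti-VEGF library, and less Cxcl14, 131 against 229 and 164 against 299 CPM. Class II cells (1353 and 806) had more Cxcl2, 1852 against 1176 and 1979 against 1413 CPM, and less Pf4, 184 against 378 and 385 against 533 CPM. Cycling cells (1470 and 689) had less Cxcl1, 147 against 213 and 197 against 323 CPM, and less Cxcl2, 1107 against 1477 and 1168 against 1675 CPM. Each of these directions was the same in both libraries.

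Among related genes, 7 lists were read beside the members in macrophage-like cells, where 2.61% of all features were higher and 1.27% lower. Of the other CXC ligands, 3 of 6 had enough UMIs, 0 were higher and 1 was lower. That gene was Cxcl13, an attractant of B cells, at 19.3 and 3.30 CPM (ratio 0.171, interval 0.151 to 0.193). The interferon-induced Cxcl10 stood at 343 and 273 CPM and Cxcl9 at 98.3 and 118 CPM. Of the receptors, 1 of 3 was higher, the scavenging receptor Ackr3 at 2.45 and 13.3 CPM (5.45, 4.77 to 6.25), while Cxcr4 stood at 129 and 112 CPM. Of 7 cytokines that raise neutrophil numbers or CXC ligands, 2 were higher and 0 lower, Il1a (ratio 1.67) and Il6 (37 and 113 UMIs, with 80 of the 113 in 1 cell). Il1b, an inducer of these chemokines, stood at 444 and 370 CPM (0.835, 0.823 to 0.846) and Tnf at 61.5 and 86.5 CPM (1.41, 1.36 to 1.45).

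Of 13 other neutrophil attractants and leukotriene genes, 3 were higher and 0 lower in macrophage-like cells (background 2.61% and 1.27%): the cytokine Mif (677 and 1079 CPM, ratio 1.59), S100a8 (1.68) and S100a9 (4.33). S100a8 and S100a9 are also neutrophil markers, and their part from neutrophil RNA was not tested. Of 11 genes of NF-kB and mRNA-decay feedback, which respond to the signals that induce Cxcl1 and Cxcl2, 0 were past 1.5-fold in either direction, with a median log2 ratio of 0.02. Nfkbia stood at 925 and 1041 CPM and Zfp36, which speeds decay of chemokine mRNA, at 672 and 592 CPM. In monocyte-like cells 2 of these 11 were higher, Nfkbia (ratio 1.53) and Tnfaip3 (1.67), beside 8.2% of all features higher there. In neutrophil-like cells 4 of 11 were higher, with Ier3 at 1.84 and Dusp1 at 1.54, in a class where 17.1% of all features were higher and 22.5% lower. Of 4 proteases that cut chemokines, 1 was higher, Mmp12, at 56.4 and 227 CPM (4.02, 3.91 to 4.14).

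T or NK cell-like cells were too few to read cytokines with confidence. Il17a, which induces Cxcl1 and Cxcl5 in stroma, had 15 UMIs in 2 control cells and 54 UMIs in 3 anti-VEGF cells. Csf2 had 8 and 125 UMIs, with 109 of the 125 in 1 cell, and Il1b 4 and 282 UMIs, with 277 of the 282 in 1 cell. Without the richest cell of each library the sums were 2 and 16 UMIs for Il17a, 5 and 16 for Csf2 and 3 and 5 for Il1b.

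The genes most like each ligand over 19 class and library sums, by Pearson r of log2(CPM + 1) among 5006 features, are given as a description. The sums share libraries and depth, so no p is given. For Cxcl2 they were Tlr4 (r = 0.972), Cebpb (0.964), Gpat3, Plaur and Clec4e (0.946), and its r with Cxcl3 was 0.903. Cxcl3 had Prdx5 (0.948) and Tlr4 (0.923) among its 5. Cxcl1 had Anxa3 (0.938), and its r was 0.632 with Cxcl5 and 0.426 with Cxcl2. Cxcl14 was nearest to Apobec1 (0.928) and had the lipid-associated macrophage gene Trem2 among its 5. Cxcl16 was nearest to Rassf4 (0.971), and Pf4 to the cholesterol exporter Abca1 (0.952).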

How the data were processed

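Per the labels' protocols, single-cell 3′ libraries (10x Genomics, v3.1) were made from sorted CD45-positive cells. The authors deposited unnormalised UMI counts for every gene in every barcode; the software was Cell Ranger 3.0.2, run on build mm10, according to the submitters' processing notes. The matrix headers name software version 3.1.0. Cells with at least 500 UMIs, at least 300 genes and at most 10% mitochondrial UMIs were kept, 18964 in all.

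Cells were gated on marker lists. A neutrophil-like cell needed 5 of 18 markers and 20 marker UMIs per 10000, a macrophage-like cell 6 of 11 and 30, a monocyte-like cell 3 of 6 and 10, an Acp5-high cell 4 of 8 and 100, and a collagen-expressing cell 4 of 8 and 5. T or NK cell-like cells needed 4 of 9 or 4 of 6 markers, and dendritic cell-like cells 4 of 6 or 4 of 7. These thresholds were set after the counts were seen, and the members and lists were chosen with earlier results of these data known. No doublet caller was run. Mast or plasmacytoid cells, under 50 in each library, were not described.

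For every class, the UMIs of its cells in a library were added up and scaled to the class total (CPM), with exact Poisson, conditional binomial and Clopper-Pearson intervals; a class count of 0 was read against a floor of 3 UMIs. Log2 ratios used a pseudocount of 1 CPM and features with at least 30 UMIs. Shares of cells were also computed after thinning cells to 2000 UMIs. Named genes were all 9 members, the 4 genes with most UMIs of each list, genes past 1.5-fold named after their values were seen, and the 5 nearest genes by correlation. The ratio step was tested on simulated counts. Alternatives were stricter cells, stricter or looser gates, assigned mixed cells, TMM (edgeR 4.0.16) and median-of-ratios scaling, equal weight per cell, the 5 richest cells left out, and pseudocounts of 0.1 and 5. The tools were numpy 2.4.6, scipy 1.17.1 and pandas 2.3.3.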

Additional observations from a re-analysis of the deposited data

How the results depend on the processing

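Of 35 log2 ratios of members within 5 classes, 17 were past 1.5-fold. Over their 170 alternative values, 166 had the same sign and 157 stayed past 1.5-fold. Over all 350 alternative values 331 had the same sign. The pseudocounts of 0.1 and 5 are counted among these values but cannot change a sign. The pseudocount of 0.1 can only move a ratio further from equal levels, so these counts overstate the stability. The difference in neutrophil-like share, 2.57 percentage points, was between 2.52 and 2.85 under the stricter cell filter, stricter and looser gates, and assigned mixed cells. Log2 ratios in macrophage-like cells moved as follows. With stricter gates Cxcl1 was 0.67, Cxcl2 0.24, Cxcl3 0.79 and Pf4 0.76, and with looser gates Cxcl1 was 0.58 and Pf4 0.57. With mixed cells assigned Cxcl2 was 0.26, Cxcl3 0.70 and Pf4 0.64. TMM and median-of-ratios scaling both gave 0.70 for Cxcl1, 0.29 for Cxcl2, 0.70 for Pf4, 0.55 for Cxcl14, and -0.079 and -0.077 for Cxcl16. With each cell weighted the same, Cxcl2 was 0.31, Pf4 0.83, Cxcl14 0.54 and Cxcl16 -0.12. Cxcl3 was 0.22 with the stricter cell filter, 0.29 without the 5 richest cells and 0.34 with a pseudocount of 5. In macrophage-like cells 171 features were past 1.5-fold lower, and 97 with TMM and 95 with median-of-ratios scaling, while 351 were higher, and 437 and 439. These scalings shifted all log2 ratios of neutrophil-like cells by 0.35 and 0.34. Signs turned for Cxcl3 in Acp5-high cells, from -0.73 to 0.42 with the stricter cell filter, 0.021 with mixed cells assigned and 0.23 without the 5 richest cells, and for Pf4 in neutrophil-like cells, from 0.87 to -0.51 with looser gates. The cause was not tested. Leaving out a library was not possible, and no paired analysis was possible because each group has 1 library. Depth limits the neutrophil-like class most, with 51 control cells of a median of 2390 UMIs.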
